A study of Mus musculus with 26 samples.

Results

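F5 and TG6 thymocytes were compared at early positive selection, in the 6 libraries sorted as CD4+CD8+CXCR4+CCR7- cells (3 per line) out of the 26 libraries of the series. All genes with a normalized count of at least 10 in at least 2 of the 26 libraries entered the comparison, which left 16372 of the 46517 symbols in the table. The series profiled thymocytes of 3 T cell receptor transgenic lines by bulk RNA-seq, TG6 with low, F5 with intermediate and OT-1 with high self-reactivity, at 3 stages: early and late positive selection and, last, mature CD8 single-positive (CD8SP) cells. The question was how the transcriptome of cells selected with weak self-recognition differs from that of cells selected with stronger self-recognition, before CD4 and CXCR4 are lost.

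F5 mice had the genotype F5tg Rag1KO on C57/BL6, and TG6 mice had the genotype TG6tg H2b/d from C57/BL6 x B6.C-H2d/bByJ parents. OT-1 libraries of the same sort, used here for values side by side, carried OT-1tg on a Rag2KO background. OT-1 libraries also entered the gene filter, the estimate of spread and a comparison of early with mature OT-1 cells. The labels name no Rag deletion for TG6, give no age, and describe the libraries of a line as biological replicates. F5 and TG6 therefore differed in receptor, in Rag genotype and in MHC haplotype, and these differences cannot be told apart by this comparison. The p-values rest on the spread between replicate libraries pooled over all 9 groups of line and stage, not over the 6 libraries alone.

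Double-positive thymocytes carry both CD4 and CD8 and die unless their T cell receptor binds self-peptide on MHC. Binding starts a kinase cascade through Lck and Lat, raises calcium, and induces immediate early genes (Fos, Jun, Egr and Nr4a families) and longer lasting markers such as Cd5, which dampens receptor signals. Cells that pass then stop expressing the recombinase genes Rag1 and Rag2 and other double-positive genes, and acquire survival and migration genes.

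The sorted populations carried the RNA of the stated gate. Cd8a lay at 31839, 33129 and 34599 normalized counts in F5 and at 36458, 36421 and 41213 in TG6. Cd4 lay at 12506, 14604 and 13502 in F5 and at 21209, 22398 and 22731 in TG6. Every TG6 library was above every F5 library for both coreceptors, but neither passed the test (log2 difference, F5 minus TG6, -0.19, adjusted p = 0.41 for Cd8a and -0.71, adjusted p = 0.48 for Cd4). With only the 6 libraries compared in the fit Cd4 was called (adjusted p = 0.0047). Cxcr4, the chemokine receptor of cortical thymocytes, was at 2638, 3691 and 4185 in F5 and at 5358, 5527 and 4598 in TG6, without overlap and without passing the test (-0.58, adjusted p = 0.51). Ccr7, which guides cells to the medulla, was low in both lines, with 139.8 to 269.9 in F5 and 112 to 199 in TG6.

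The check of the Rag genotype was not clean. Rag1 (chr2:101638282-101649501, GRCm38) was read at 10835, 15149 and 16266 in the F5 libraries labelled Rag1KO, at 51114, 58364 and 54448 in TG6, and at 5183, 4303 and 6987 in the Rag2KO OT-1 libraries. F5 was below TG6 in every library, with a log2 difference of -1.98 (SE 0.88, adjusted p = 0.22; 0.002 with only the 6 libraries compared in the fit), yet it was above OT-1, in which Rag1 is intact. A count over the whole gene thus does not show the deletion. Rag2, intact in both lines compared, lay at 669, 1434 and 1448 in F5 and at 2322, 2529 and 2074 in TG6 (-1.04, adjusted p = 0.62).

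The 6 libraries held between 16356143 and 17407678 reads as estimated from the smallest common step of the values in each library, a rough figure because most values were not whole multiples of that step. F5 replicate 1 and TG6 replicate 3 stood apart within their groups by high immediate early genes. Jun was at 1125, 271 and 292 in F5 and at 229, 291 and 1134 in TG6. Several counts below are also given without these 2 libraries of high Jun, which leaves 2 libraries a line. Defining markers of thymic epithelium (Krt5, Krt14, Foxn1), endothelium (Cdh5) and NK cells (Ncr1) were listed at 0 in all 6 libraries, while the other markers of these classes were not. The summed markers ran from 105 to 148 for epithelium, from 2718 to 3640.1 for stroma and endothelium (mostly Pecam1) and from 425 to 747 for NK and innate-like lymphocytes over the 6 libraries, with none called. Erythroid markers summed to between 36.8 and 685 in F5 and between 198 and 357 in TG6. The summed myeloid and dendritic markers ran from 1003 to 1046 in F5 and from 885 to 947 in TG6, with no marker called, and the summed B cell markers from 256 to 305 and from 266 to 451. The summed regulatory T cell markers were lower in F5, from 891 to 1217 against 1493 to 1826 in TG6, again with none called, and their part in the results was not tested. Of the B cell markers Blk, a kinase also found in immature T cells, was called higher in TG6 (52.3 to 113 against 8.74 to 28 in F5). In such sorted bulk RNA, fewer cells of a type and less RNA per cell cannot be told apart.

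Of the 16372 genes tested, 1058 (6.46%) were called in a limma fit at an adjusted p under 0.05, a difference larger than the spread between replicates. F5 was higher for 510 (3.12%) and TG6 for 548 (3.35%). The median difference over all genes was -0.00 on the log2 scale, so that changes below are relative to a centre close to 0. The median absolute log2 difference was 1.19 for genes higher in TG6 and 0.77 for genes higher in F5, and 302 of 548 (55.1%) reached 1, against 198 of 510 (38.8%). Without T cell receptor segments and genes within 5 Mb of H2-K1 the gap was smaller, with medians of 0.91 and 0.77 and with 43.8% and 39.0% of genes reaching 1. Without F5 replicate 1 and TG6 replicate 3, 418 genes were called, of which 395 were among the 1058.

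**Figure D1:**
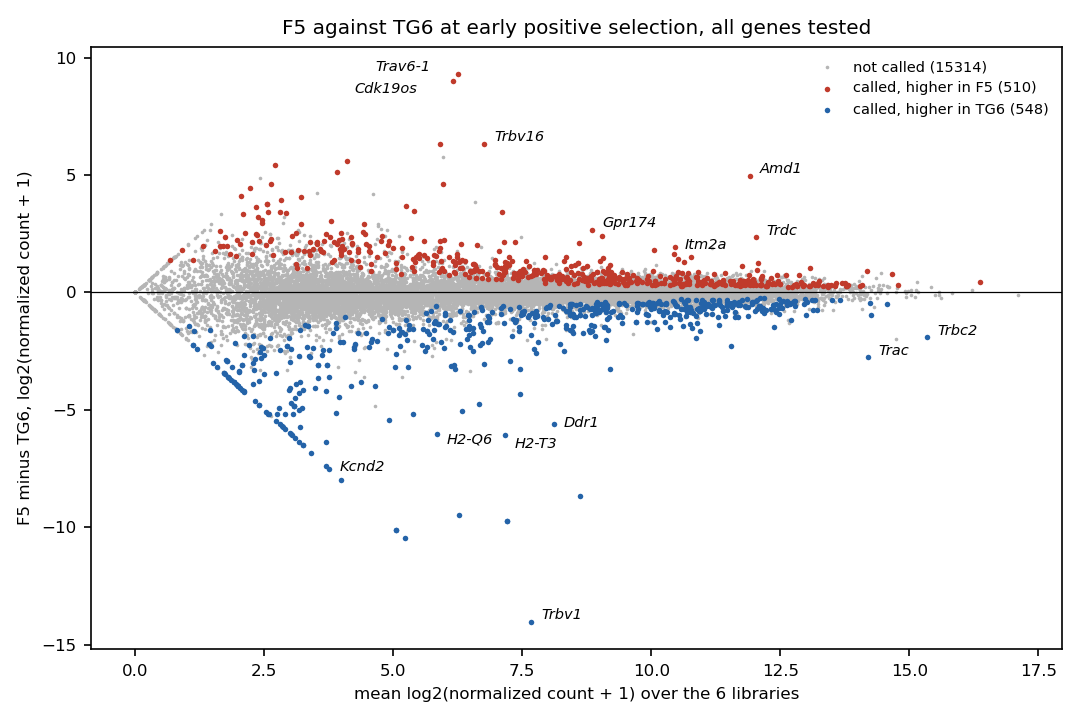
Mean level of each gene over the 6 libraries (x, log2 of normalized count + 1) against the F5 minus TG6 difference (y, log2 scale), with 1 point per gene tested. The 510 genes called higher in F5 are red and the 548 called higher in TG6 are blue, and points far from 0 include receptor segments such as Trbv1 and Trav6-1 and genes such as Ddr1 and Amd1.

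Several lasting markers of receptor signalling were called higher in F5, whereas Nr4a1, Fos and Jun overlapped between the lines. Of 32 tested genes on a list of T cell receptor response genes, 22 were higher in F5 in the mean (all genes 49.3%), 4 were called higher in F5 (Cd5, Itm2a, Ikzf2 and Tox; all genes 3.12%) and 1 higher in TG6 (Irf4; all genes 3.35%). The median log2 difference of the list was 0.31 and rested largely on F5 replicate 1, without which it was 0.03, with 17 of 32 genes higher in F5 and 2 called so. Without the 2 libraries of high Jun it was 0.25, with 1 gene called in each direction. Leaving out TG6 replicate 1 gave a median of 0.15, and leaving out TG6 replicate 3 gave 0.48. Cd5 (chr19:10717116-10739002) was at 10035, 10650 and 8468 normalized counts in F5 and at 6040, 5712 and 5463 in TG6. The groups did not overlap, and the log2 difference was 0.75 (SE 0.18, adjusted p = 0.014). This call was lost without F5 replicate 1 (adjusted p = 0.056), F5 replicate 2 (0.072) or TG6 replicate 3 (0.062). OT-1 stood at 11790, 11682 and 12134, above both.

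Itm2a (chrX:107397099-107403376), a membrane protein gene induced during thymocyte selection, had a larger difference than the other list members called. It was at 3121, 1610 and 2962 in F5 and at 785, 852 and 717 in TG6, a log2 difference of 1.65 (SE 0.21, adjusted p = 1.2e-05). The lowest F5 library was above every TG6 library, and all OT-1 libraries (8636, 10469 and 7537) were above F5. Ikzf2, which encodes the transcription factor Helios, was at 4988, 4933 and 4816 in F5, 3297, 3048 and 2484 in TG6, and 5389, 4446 and 4767 in OT-1. F5 and OT-1 overlapped for Ikzf2, and F5 was above TG6 by 0.75 (SE 0.15, adjusted p = 0.0028). Tox, a nuclear factor required for lineage commitment of selected cells, differed by 0.43 (SE 0.11, adjusted p = 0.023), with 4930, 4869 and 4384 in F5 and 3723, 3717 and 3141 in TG6. Its call was lost without F5 replicate 1 (adjusted p = 0.092), F5 replicate 2 (0.089) or TG6 replicate 3 (0.14).

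Irf4, a transcription factor gene that receptor signals induce in a graded way in mature T cells, went the other way. It was at 51.6, 32.9 and 26.2 in F5 and at 97.0, 78.5 and 79.4 in TG6, with a log2 difference of -1.23 (SE 0.28, adjusted p = 0.0079). The highest F5 library was below the lowest TG6 library, while OT-1 libraries were above both at 206, 186 and 189. The call was lost without F5 replicate 3 (adjusted p = 0.061) and with voom weights (0.11).

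None of the immediate early genes on the list was called. Nr4a1, the orphan receptor gene whose reporter is used to read receptor signal strength, was at 9595, 2806 and 3371 in F5 and at 2283, 2299 and 6879 in TG6. The groups overlapped, with a difference of 0.44 (SE 0.69, adjusted p = 0.78) that turned to -0.10 without F5 replicate 1. Fos was at 1338, 382 and 656 in F5 and at 286, 325 and 876 in TG6 (0.68, adjusted p = 0.58). High values of Nr4a1, Fos and Jun fell in the same library of each line, F5 replicate 1 and TG6 replicate 3. Among genes just outside the threshold, Egr1 differed by 1.00 (adjusted p = 0.091, and 0.04 without TG6 replicate 1) and Cd6, a relative of Cd5, by 0.34 (adjusted p = 0.082). Cd69, the activation marker, was at 633, 634 and 604 in F5 and at 383, 364 and 473 in TG6. Its groups did not overlap, and the difference of 0.63 missed the threshold (adjusted p = 0.29) except with only the 6 libraries compared in the fit (0.023).

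The promoters of Itm2a and Cd5 are shown as examples of response genes called higher in F5, and the letters let a reader see which short motifs lie near their start sites. The sequences are from RefSeq (GRCm38.p6), from 250 bases before the start site to 50 from it on, both on the minus strand and printed 5′ to 3′. Capitals mark matches to E box letters (CAGGTG or CAGCTG, bound by E proteins) and to the core letters TGGAAA read by NFAT factors, on either strand. Searches for AP-1 (TGANTCA), CRE (TGACGTCA), EGR (GCGNGGGCG) and CArG letters on both strands found none in these 2 windows.
Itm2a promoter, chrX:107403311-107403610: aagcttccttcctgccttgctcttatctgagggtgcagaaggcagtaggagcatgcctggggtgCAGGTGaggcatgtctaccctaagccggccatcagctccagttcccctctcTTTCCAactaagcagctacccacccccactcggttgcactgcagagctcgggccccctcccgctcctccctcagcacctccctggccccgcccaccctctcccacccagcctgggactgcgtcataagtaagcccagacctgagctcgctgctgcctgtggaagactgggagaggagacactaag
Cd5 promoter, chr19:10738925-10739224: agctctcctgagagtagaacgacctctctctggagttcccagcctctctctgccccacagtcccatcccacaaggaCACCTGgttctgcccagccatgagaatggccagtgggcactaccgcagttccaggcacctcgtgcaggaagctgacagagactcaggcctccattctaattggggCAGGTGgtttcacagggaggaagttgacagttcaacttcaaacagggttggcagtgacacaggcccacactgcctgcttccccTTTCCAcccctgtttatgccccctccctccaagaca
With the start site counted as 0, the Itm2a window held an E box from -186 to -181 and an NFAT core on the opposite strand from -135 to -130. The Cd5 window held E boxes from -174 to -169 and from -69 to -64, and an NFAT core from 14 to 19. Of all 32851 mouse windows of this length 32.9% held such an E box and 21.4% such an NFAT core, so both matches are common. The windows of Irf4, Tdrd5 and Slc6a19 held no match to any of these motifs. Windows were found for 22 of the 32 response genes tested and for 8 of the 11 preselection genes described next.

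Most genes of a preselection double-positive list were higher in TG6. The list of 11 genes is the study's own, drawn from microarrays of non-transgenic thymocytes and used here with earlier results of these data known, and held 7 genes called higher in TG6 (all genes 3.35%) and none called higher in F5 (all genes 3.12%). Its median log2 difference was -0.76, and without the 2 libraries of high Jun 2 were called. Spo11 (chr2:172977700-172993576), known for the DNA breaks of meiosis, was at 1001, 966 and 912 in F5 and at 2509, 2761 and 2494 in TG6. The difference was -1.43 (SE 0.16, adjusted p = 2.6e-06), and the F5 range overlapped that of OT-1 (1169, 932 and 750.3). Tdrd5, a germ line RNA granule gene, was at 386, 237 and 396 in F5 and at 929, 891 and 1184 in TG6, a difference of -1.58 (SE 0.44, adjusted p = 0.031). OT-1 libraries held only 53.6, 45.6 and 116, below F5. The Tdrd5 call was lost when any 1 of the 6 libraries was left out (adjusted p from 0.055 to 0.15).

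Slc6a19, which encodes an amino acid transporter, was at 273, 305 and 289 in F5 and spread from 554 over 732 to 1170 in TG6 (-1.43, SE 0.37, adjusted p = 0.021). Clk3, a kinase of splicing factors, was at 3870, 4211 and 4333 in F5 and at 6460, 7582 and 9511 in TG6 (-0.91, SE 0.12, adjusted p = 1.9e-05). Plxnd1, a plexin that guides thymocyte migration, differed by -0.76 (SE 0.21, adjusted p = 0.028), Wdr78 by -0.93 (SE 0.27, adjusted p = 0.041) and Themis by -0.33 (SE 0.08, adjusted p = 0.015). No F5 library reached a TG6 library for any of these 5 genes. With 1 library left out, Slc6a19 and Plxnd1 were called only without TG6 replicate 1 and Wdr78 only without F5 replicate 3 (adjusted p otherwise up to 0.13, 0.14 and 0.17), and the call of Themis was lost without F5 replicate 1 (0.077) or TG6 replicate 3 (0.082). The Wdr78 call was also lost with no filter or no trended prior (adjusted p up to 0.064), where 6 genes of the list were called. Themis, a gene required for positive selection itself, was at 11033, 12151 and 11525 in F5 and at 14160, 14218 and 15334 in TG6.

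A separate list of 19 double-positive identity genes held 2 called genes, both higher in TG6 (all genes 3.35%), with a median of -0.22 and 17 of 19 members lower in F5 (50.4% of all genes). Both calls were lost without the 2 libraries of high Jun. Bcl2l1, a survival gene of double-positive cells, was at 1794, 2012 and 2049 in F5 and at 4012, 3663 and 4041 in TG6. It differed by -1.0 (SE 0.20, adjusted p = 0.0025), with OT-1 lower again at 1207, 1152 and 1367. Cd1d1, which presents lipids to NKT cells, was lower in F5 by 0.47 on the log2 scale (SE 0.13, adjusted p = 0.037), a call that held with 1 library left out only without F5 replicate 1 (adjusted p otherwise up to 0.17). The summed double-positive markers, which include Cd4, Cd8a and Rag1, ran from 98063 to 117523 in F5 and from 168840 to 187202 in TG6. The sum of mature single-positive markers ran from 4862 to 6240 in F5 and from 4019 to 4353 in TG6.

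Of 20 maturation and egress genes, 18 were higher in F5 (all genes 49.3%) and 3 were called (all genes 3.12%), with a median of 0.38. Without the 2 libraries of high Jun these were 14 and 1 (median 0.22). Without F5 replicate 1 alone they were 15 and 1 (median 0.23), and without F5 replicate 3 the median was 0.58. Gimap3, a GTPase gene of T cell survival, was at 587, 683 and 515 in F5 and at 263, 213 and 267 in TG6 (1.26, SE 0.15, adjusted p = 8.6e-06). Gimap4 was at 243, 138 and 176 in F5 and at 116, 116 and 92.4 in TG6 (0.74, SE 0.17, adjusted p = 0.0086), far below the 2236 to 2717 of OT-1. The tetraspanin gene Cd53 differed by 0.67 (SE 0.16, adjusted p = 0.0099), with 2502, 2018 and 1695 in F5 and 1388, 1496 and 1024 in TG6. All 3 genes ranked TG6, F5 and OT-1 in ascending order without overlap between neighbours. With only the 6 libraries compared in the fit, 1 gene of the list was called in each direction, and Gimap4 (adjusted p = 0.1) and Cd53 (0.077) were not. With voom weights Gimap4 was not called either (0.14). The Gimap4 and Cd53 calls were also lost without F5 replicate 1 (adjusted p = 0.076 and 0.08) or TG6 replicate 3 (0.064 and 0.086).

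**Figure D2:**
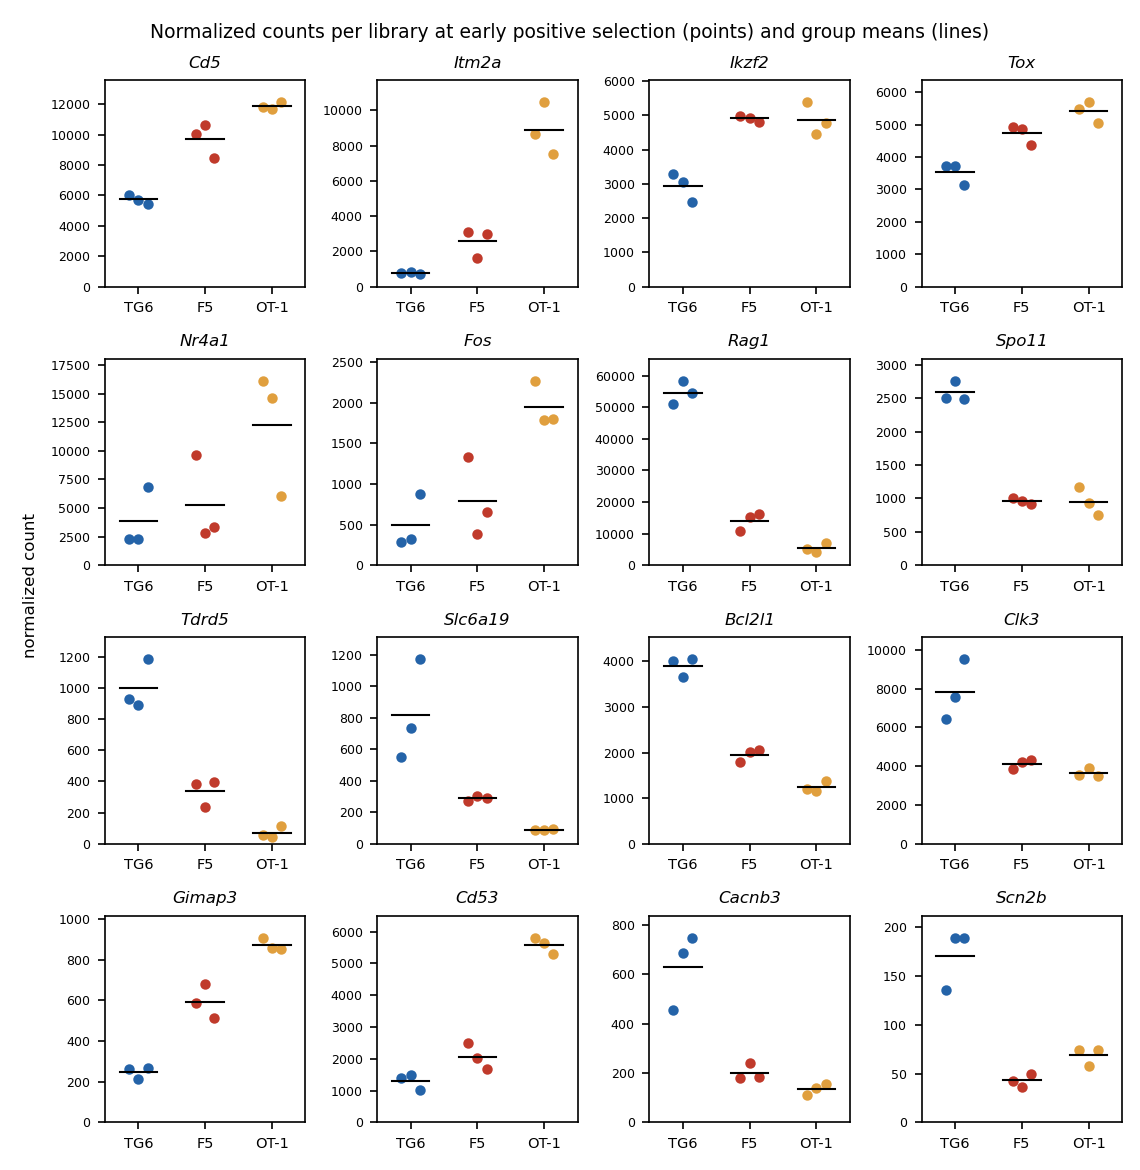
Normalized count (y, linear from 0) of 16 genes in each early positive selection library (points) with the group mean (lines) for TG6, F5 and OT-1. Cd5, Itm2a, Gimap3 and Cd53 rise from TG6 to F5 to OT-1, Spo11 and Clk3 are high only in TG6 among these lines, and Nr4a1 and Fos overlap between TG6 and F5.

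Several inhibitors of receptor signalling were called higher in F5. Of 21 attenuators tested, 5 were called higher in F5 (Cd5, Ubash3b, Ptpn6, Ptpn2 and Csk; all genes 3.12%) and 2 higher in TG6 (Sla2 and Pag1; all genes 3.35%). The list median was 0.10, or 0.04 without TG6 replicate 1 and 0.03 without the 2 libraries of high Jun, where all 7 calls were lost. Without F5 replicate 1 alone, 1 attenuator was called higher in F5 and 2 higher in TG6. Ubash3b, a phosphatase that acts on Zap70, was at 335, 229 and 253 in F5 and at 166, 153 and 169.7 in TG6 (0.72, SE 0.18, adjusted p = 0.018). Csk, the kinase that holds Lck inactive, was at 6305, 6201 and 5646 in F5 and at 4692, 4995 and 4600 in TG6 (0.34, SE 0.07, adjusted p = 0.0041). The phosphatase genes Ptpn6 and Ptpn2, which encode SHP-1 and TC-PTP, differed by 0.54 (adjusted p = 0.03) and 0.45 (adjusted p = 0.029). On the opposite side, the adaptor gene Sla2, which lowers surface receptor, was at 2661, 2460 and 2245 in F5 and at 3050, 3397 and 5183 in TG6 (-0.62, adjusted p = 0.019). Pag1, which recruits Csk to the membrane, differed by -0.55 at the edge of the threshold (adjusted p = 0.05 after rounding). Of these, only Csk kept its call whichever single library was left out. The call of Ubash3b was lost without F5 replicate 1 (adjusted p = 0.12) or TG6 replicate 2 (0.075) or with voom weights (0.068), and that of Sla2 without F5 replicate 2 (0.058) or 3 (0.088) or TG6 replicate 3 (0.15). Ptpn2 was called only without F5 replicate 3 or TG6 replicate 3 (elsewhere up to 0.14), Ptpn6 only without TG6 replicate 1 (up to 0.16), and Pag1 only without F5 replicate 1 (up to 0.2). With only the 6 libraries compared in the fit, the calls of Ptpn2 (adjusted p = 0.069), Ptpn6 (0.07) and Sla2 (0.1) were lost as well. Pag1 also lost its call with a pseudocount of 0.1, no filter, no trended prior or voom weights, and Ptpn6 with no trended prior.

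Among 24 proximal signalling genes 16 were higher in TG6 in the mean (median -0.05), 3 were called higher in F5 (all genes 3.12%) and 1 higher in TG6 (all genes 3.35%), calls that were all lost without the 2 libraries of high Jun. Lck, the kinase that starts the cascade, was at 30659, 32247 and 31881 in F5 and at 24738, 25897 and 24511 in TG6 (0.34, SE 0.07, adjusted p = 0.0066), with both lines above the 17055 to 19679 of OT-1. The adhesion receptor gene Cd2 differed by 0.48 (SE 0.11, adjusted p = 0.0064) and the kinase gene Prkcq by 0.35 (adjusted p = 0.038). The Prkcq call was lost whichever of the 6 libraries was left out. It was lost too with no filter, scaling to the library total or no trended prior (adjusted p up to 0.069). Lat, the adaptor downstream of Zap70, was the gene higher in TG6, at 12270, 13392 and 13087 against 10578, 9799 and 10637 in F5 (-0.32, SE 0.08, adjusted p = 0.016). F5 and TG6 libraries did not overlap for Lck or Lat. The Lat call was lost without F5 replicate 2 (adjusted p = 0.089), TG6 replicate 2 (0.078) or TG6 replicate 3 (0.064), and that of Cd2 without F5 replicate 1 (0.055).

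Called genes of the study's channel list and of the voltage-gated family were higher in TG6 in the fit of all 26 libraries. Of 12 channel genes that the study named with these samples in view, and which are therefore no independent evidence of direction, 3 were called, all higher in TG6 (median -0.45), as were 3.35% of all genes. In the wider family of 44 voltage-gated channel genes, 6 were called, again all higher in TG6 (median -0.21). Without the 2 libraries of high Jun, 2 and 3 genes of these lists were called, in the same direction. With only the 6 libraries compared in the fit, 1 of the 12 was called higher in F5 and 5 higher in TG6. With voom weights these were 1 and 4. Cacnb3, a regulatory subunit of voltage-gated calcium channels, was at 179, 241 and 184 in F5 and at 456, 687 and 747 in TG6 (-1.62, SE 0.23, adjusted p = 5.9e-05). Scn2b, a sodium channel subunit, was at 42.8, 36 and 50 in F5 and at 135, 189 and 189 in TG6 (-1.96, SE 0.36, adjusted p = 0.0013). The potassium channel gene Kcnh3 was at 410.2, 316 and 373 in F5 and at 561, 573 and 672 in TG6 (-0.72, SE 0.19, adjusted p = 0.021). In all 3 genes each TG6 library was above each F5 library. The Kcnh3 call was lost without F5 replicate 2 (adjusted p = 0.11), F5 replicate 3 (0.055) or TG6 replicate 3 (0.1). Kcnd2, another potassium channel gene, was listed at 0 in all F5 and OT-1 libraries and at 138, 173 and 248 in TG6.

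Of 14 store-operated calcium genes 2 were called higher in TG6 (all genes 3.35%) and 1 higher in F5 (all genes 3.12%), with a median of -0.07. The inositol trisphosphate receptor gene Itpr1, whose product releases stored calcium, was at 1483, 1110 and 1169 in F5 and at 1956, 2073 and 2618 in TG6 (-0.82, adjusted p = 0.0075), and its relative Itpr2 differed by -0.51 (adjusted p = 0.023). Orai3, a subunit of the entry channel, was higher in F5 at 73.3, 76.7 and 88.4 against 32.0, 56.8 and 43.7 (0.87, adjusted p = 0.022). Without the 2 libraries of high Jun 1 gene of the list was called. The Itpr1 call was lost without TG6 replicate 3 (adjusted p = 0.06), that of Itpr2 without F5 replicate 1 (0.086) or 2 (0.083) or TG6 replicate 1 (0.11), and that of Orai3 without F5 replicate 2 (0.058) or 3 (0.095) or TG6 replicate 1 (0.14) or 3 (0.063), or with only the 6 libraries compared in the fit (0.09) or voom weights (0.056). Of 11 Notch and E protein genes, 2 were called, both higher in TG6 (all genes 3.35%). Dtx1, a target of Notch that modulates it, was at 739, 635 and 561 in F5 and at 2030, 2062 and 1639 in TG6, a difference of -1.57 (SE 0.20, adjusted p = 2e-05). For Dtx1 OT-1 (2347, 1973 and 2084) overlapped TG6, and only F5 was low. Notch3, the receptor gene of immature thymocytes, differed by -1.36 (adjusted p = 0.00055) and lies on chromosome 17 at 1.83 Mb from H2-K1, within the region described below.

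Cell division genes lay higher in F5 almost without exception, but few passed the test. Of 40 genes of G2/M and mitosis, 39 were higher in F5 (all genes 49.3%), with a median of 0.72. For 38 of them the groups did not overlap (17% of all genes). Only Kif23 was called, while 3.12% of all genes were called higher in F5. The Kif23 call was lost without the 2 libraries of high Jun and without any 1 library other than F5 replicate 1 (adjusted p from 0.071 to 0.1). Kif23, a kinesin of cytokinesis, was at 2073, 2471 and 2474 in F5 and at 1501, 1491 and 1463 in TG6 (0.65, SE 0.18, adjusted p = 0.028). The summed list ran from 127548 to 165527 in F5, from 85982 to 93710 in TG6 and from 121610 to 173372 in OT-1. Mki67, the proliferation marker, was at 26351, 31094 and 32414 in F5 and at 17443, 16189 and 16909 in TG6 (0.83, adjusted p = 0.61). Of 40 DNA replication genes 39 were higher in F5 (all genes 49.3%; median 0.46), 7 had an unadjusted p under 0.05 and none was called. These calls depended on which libraries shared the estimate of spread. With only the 6 libraries compared in the fit, 28 of the 40 mitosis genes and 18 of the 40 replication genes were called higher in F5, and 1 replication gene higher in TG6. Of all 16372 genes that fit called 914 higher in F5 and 749 higher in TG6.

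Most ribosomal protein genes also had a higher mean in F5. Of 82 tested, 80 were higher in F5 (all genes 49.3%), 71 without overlap (all genes 17%), and 24 were called (all genes 3.12%), with a median log2 difference of 0.27. The number called was 12 with no filter or no trended prior and 46 with only the 6 libraries compared in the fit. Their summed count ran from 521365 to 556004 in F5 and from 449357 to 452243 in TG6, both below the 773775 to 852640 of OT-1. Rps18, a protein of the small subunit, was at 6033, 5612 and 6035 in F5 and at 2978, 3091 and 3141 in TG6 (0.94, SE 0.08, adjusted p = 3.4e-08). Rps18 lies beside H2-K1, and reads of ribosomal genes may be shared with their many processed pseudogenes. Rpl37, of the large subunit, was at 1108, 973 and 1083 in F5 and at 787, 773 and 747 in TG6 (0.45, adjusted p = 0.00067). Between 5 and 14 ribosomal genes were called when 1 library was left out, and 2 without F5 replicate 1 and TG6 replicate 3. Of 53 translation initiation factors 6 were called, all higher in F5 (all genes 3.12%; median 0.24; 2 called without F5 replicate 1 and TG6 replicate 3), among them Eif4b, a helper of the cap-binding helicase (0.34, adjusted p = 0.0026). Of 38 proteasome subunits 37 were higher in F5, and only the immunoproteasome subunit Psmb9 was called (0.63, adjusted p = 0.016). That call was lost without F5 replicate 2 (adjusted p = 0.086), TG6 replicate 1 (0.056) or TG6 replicate 3 (0.062).

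**Figure D3:**
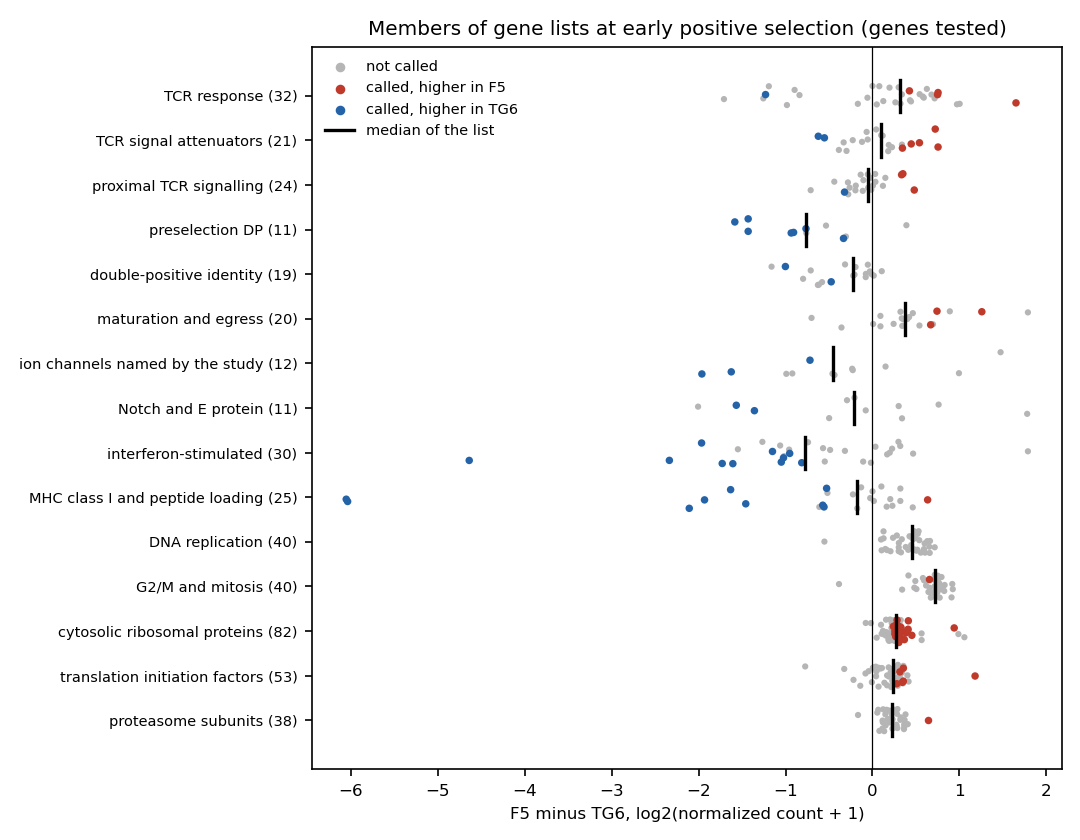
F5 minus TG6 difference (x, log2 of normalized count + 1) of each tested member of 15 gene lists (rows, number of genes in brackets), coloured by call, with the list median as a black bar. Medians are negative for the preselection, channel and interferon lists and positive for mitosis, replication and ribosomal genes.

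Interferon-stimulated genes that were called were higher in TG6. Of 30 tested, 10 were called, all higher in TG6 (all genes 3.35%), 8 were higher in F5 in the mean (all genes 49.3%), and the median was -0.78. Without the 2 libraries of high Jun 7 were called (median -0.82), and with voom weights 5, Irf7 (adjusted p = 0.082) and Xaf1 (0.12) not among them. Rtp4, a chaperone of membrane receptors induced by interferon, was at 30.2, 14.5 and 22.3 in F5 and at 135, 119 and 88.1 in TG6 (-2.34, SE 0.31, adjusted p = 2.9e-05), with OT-1 above both at 247, 219 and 235. Irf7, the factor that amplifies type I interferon responses, was at 142, 134 and 151 in F5 and at 267, 318 and 248 in TG6 (-0.95, adjusted p = 0.0044). Irf9, the DNA-binding part of the interferon-activated complex ISGF3, was at 318, 525 and 391 in F5 and at 874, 963 and 689.7 in TG6 (-1.05, adjusted p = 0.0013). No F5 library reached a TG6 library for Rtp4, Irf7 or Irf9. Trim30a and Xaf1 differed by -1.15 (adjusted p = 0.00066) and -1.02 (adjusted p = 0.01), the latter call lost without F5 replicate 2 (0.053), F5 replicate 3 (0.056) or TG6 replicate 3 (0.079). The remaining 5 called genes were Ifit1, Ifi27l2a, Oas1a, Oas2 and Oas3.

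MHC class I and peptide loading genes held 9 genes called higher in TG6 (all genes 3.35%) and 1, Psmb9, higher in F5 (all genes 3.12%), of 25 tested. Without the 2 libraries of high Jun 6 were called on the TG6 side and the Psmb9 call was lost. H2-T3, a nonclassical class I gene known as the thymus leukaemia antigen, was at 24.6, 23.1 and 7.70 in F5 and at 981, 1044 and 1529 in TG6, a log2 difference of -6.05 (SE 0.68, adjusted p = 2.9e-06). H2-Q6 was at 4.11, 8.16 and 6.55 in F5 and at 422, 529 and 445 in TG6 (-6.04, SE 0.41, adjusted p = 9.2e-10). H2-T22, a ligand of some gamma delta T cell receptors, was at 962, 984 and 939 in F5 and at 3287, 3652 and 4120 in TG6 (-1.93, SE 0.12, adjusted p = 2.1e-10). The classical gene H2-K1 (chr17:33996017-34000347) was at 767, 866 and 752 in F5 and at 1153, 1138 and 1117 in TG6 and missed the threshold (-0.52, adjusted p = 0.056). H2-D1 passed it (-0.57, adjusted p = 0.029), though with 1 library left out only without F5 replicate 2 (adjusted p up to 0.11 otherwise). The H2-D1 call was also lost with voom weights (adjusted p = 0.067) and with no trended prior (0.051). TG6 mice carried H2b/d, and reads were aligned to the mm10 genome, whose strain carries H2b. Haplotype, its alignment and regulation cannot be told apart for these genes.

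Calls higher in TG6 were frequent within 5 Mb of this locus but not within 1 Mb. Within 5 Mb of H2-K1, 38 of 246 tested genes (15.4%) were called higher in TG6 and 11 (4.47%) higher in F5. In the genome outside the windows around H2-K1, Rag1 and Amd1, 464 of 14714 genes with a position, receptor segments left out (3.15%), were called higher in F5 and 396 (2.69%) higher in TG6. Within 1 Mb of H2-K1 2 of 88 genes (2.27%) were called higher in TG6 and 5 (5.68%) higher in F5. Most of the genes with a large difference lay beyond 1 Mb on the side of the Q and T class I genes, which is also where Ddr1, a collagen receptor kinase gene, is found. Ddr1 was at 39.0, 43.7 and 33.3 in F5 and at 1687, 1838 and 2331 in TG6 (-5.62, SE 0.28, adjusted p = 3.6e-12). Around Rag1, 3 genes were called higher in F5 and 4 higher in TG6 of 43 within 5 Mb, and 3 of 11 within 1 Mb were called, all higher in TG6. One of the genes higher in F5 was Cd44, the memory and adhesion marker 1.25 Mb away, at 270.2, 226 and 239 in F5 and at 94.7, 80.0 and 46.4 in TG6 (1.78, SE 0.21, adjusted p = 3.9e-06).

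A large difference outside the receptor loci was that of Amd1 (chr10:40287458-40302186), which encodes S-adenosylmethionine decarboxylase, an enzyme of polyamine synthesis. Amd1 was at 22312, 20963 and 21638 in F5, at 599.7, 629 and 849.7 in TG6 and at 1056, 1041 and 794 in OT-1. The F5 libraries stood apart from both other lines, with a log2 difference from TG6 of 4.98 (SE 0.18, adjusted p = 2.5e-14). The same held at the later stages (5.36 late and 3.95 in mature CD8SP). The neighbouring noncoding gene Cdk19os (chr10:40348508-40350103) was at 1556, 1618 and 1643 in F5 and at 3.55, 0.892 and 2.61 in TG6. Within 1 Mb of Amd1, a window chosen after its values were seen, 4 of 14 genes, Amd1 itself included, were called higher in F5 and none higher in TG6. Beside Amd1 and Cdk19os these were the kinase gene Cdk19 (0.41, adjusted p = 0.0054) and the amino acid transporter gene Slc16a10 (0.72, adjusted p = 0.0012). Within 5 Mb, 6 of 48 genes were called higher in F5 and 1 higher in TG6. In the rest of the genome 3.15% and 2.69% were called so. Amd2 (chr10:35708675-35711892), a near-identical copy that may share reads with Amd1, was at 329, 357 and 244 in F5 and at 12.9, 19.9 and 5.81 in TG6.

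**Figure D4:**
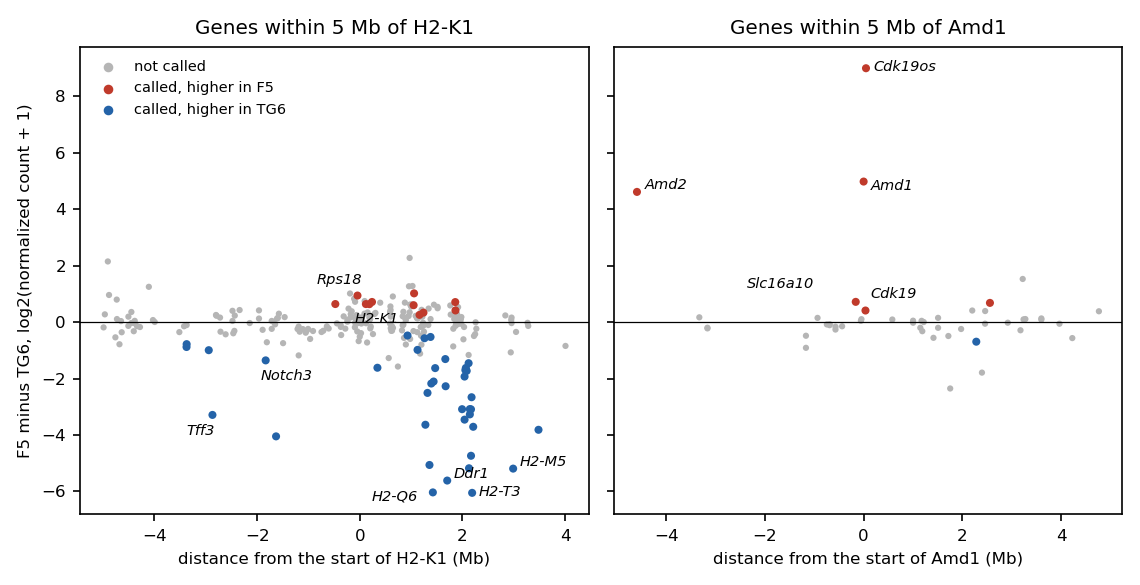
F5 minus TG6 difference (y, log2 of normalized count + 1) against distance from the start of H2-K1 (left) and of Amd1 (right) in Mb, with 1 point per gene tested and colours by call. On the left 38 blue points (TG6 higher) gather mostly between 1 and 4 Mb. On the right 4 red points, Cdk19os and Amd1 the highest, sit at the centre. The red points farther out are Amd2 and Scml4, and the blue point is Ostm1.

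Further genes named by size of difference or by adjusted p were higher in F5. Gpr174, a receptor for lysophosphatidylserine on lymphocytes, was at 1173, 1151 and 1169 in F5 and at 262, 168 and 138 in TG6 (2.67, SE 0.20, adjusted p = 4.6e-09), with 1098, 1319 and 1482 in OT-1. Vim, the intermediate filament gene, was at 3206, 2937 and 2689 in F5 and at 1315, 1055 and 819 in TG6 (1.49, SE 0.13, adjusted p = 4.4e-08), and higher again at 6962 to 7536 in OT-1. F5 thus overlapped OT-1 for Gpr174 and lay between the other lines for Vim. Cd200, an inhibitory surface ligand, was at 218, 79.5 and 145 in F5 and at 8.66, 37.8 and 2.18 in TG6 (3.69, adjusted p = 0.00011, but 0.053 with only the 6 libraries compared in the fit). Iqgap2, a scaffold of the actin cytoskeleton, differed by 0.84 (adjusted p = 3.8e-06).

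On the TG6 side, Rmnd5a, a subunit of a ubiquitin ligase, was at 13558, 14351 and 14253 in F5 and at 26262, 26132 and 29919 in TG6 (-0.96, SE 0.10, adjusted p = 8.2e-07). The guanylate-binding protein gene Gbp8 was at 1650.3, 1475 and 1662 in F5 and at 3917, 3790.3 and 4660.3 in TG6 (-1.36, adjusted p = 6.1e-08). Ilvbl differed by -0.80 (adjusted p = 5.1e-07). Each of these 3 genes was higher in every TG6 library than in every F5 library. Hoxc9, a homeobox gene of trunk patterning, was at 3.67, 6.38 and 1.83 in F5 and at 178, 203 and 217 in TG6 (-5.44), and Pde6a, known from rod photoreceptors, was at 4.92 to 6.92 in F5 and 245 to 256 in TG6 (-5.19). Socs3, an inhibitor of cytokine receptor signals, was at 74.5, 69.1 and 107 in F5 and at 266, 314 and 309.5 in TG6 (-1.84, adjusted p = 9e-05), and the death receptor gene Fas differed by -0.50 (adjusted p = 0.0061; 0.057 without TG6 replicate 3).

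Receptor genes marked the lines. In F5 the variable segment Trbv16 held 87.3 to 92.0% of the summed beta variable counts and Trav6-1 81.7 to 86.3% of the alpha variable counts. In TG6 Trbv1 held 91.3 to 92.1% of beta counts. Trav6-7-dv9 held 35.2 to 36.3% of alpha counts. Trbv1 was at 24523, 26165 and 27982 in TG6 and at 0, 0 and 2.91 in F5, and Trav6-1 at 1669.9, 1943 and 2171 in F5 and at 0.990, 1.99 and 3.87 in TG6. At a count of at least 10, F5 libraries held 12, 14 and 12 of the 129 alpha variable segments, and TG6 libraries 71, 71 and 88. Reads may be shared among near-identical Trav copies, so that the number of segments is uncertain.

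The constant regions moved with them. Trac, the alpha constant region, was at 6668, 7228 and 7856 in F5, at 41397, 51783 and 53883 in TG6 and at 19785, 22614 and 17664 in OT-1 (F5 minus TG6 -2.75, SE 0.14, adjusted p = 4.3e-12). Trbc2, a beta constant region, differed by -1.91 (adjusted p = 2.8e-12). Trdc, the delta constant region, whose gene lies inside the alpha locus, went the other way. It was at 9991, 8769 and 9406 in F5 and at 2029, 1699 and 1838 in TG6 (2.34, SE 0.19, adjusted p = 2.5e-08), and the OT-1 libraries were at 7406, 6541 and 7244. Trdc was also the only gamma delta T cell marker called higher in F5, and Blk, on the same marker list, was called higher in TG6.

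The difference between the lines was followed into the later stages of the same lines, with TG6 late positive selection represented by 2 libraries. F5 against TG6 gave 814 called genes (4.97%) at late positive selection, 286 (1.75%) of them higher in F5 and 528 (3.23%) in TG6. In mature CD8SP it gave 1087 (6.64%), with 350 (2.14%) higher in F5 and 737 (4.5%) in TG6. Of the 510 genes higher in F5 early, 292 were higher in F5 in mature CD8SP and 89 were called so, while 29 were called in the opposite direction. Of the 548 higher in TG6 early, 410 were higher in TG6 in mature CD8SP, 203 were called so and 7 were called opposite. In all 3 stages 51 genes were called higher in F5 and 156 higher in TG6. Without receptor segments and genes within 5 Mb of H2-K1 these were 47 and 64, and the genes called in the same direction in mature CD8SP were 83 for F5 and 97 for TG6. The change of the difference between early and mature cells itself passed the test for 721 genes (4.4%), and between early and late for 340 (2.08%). These counts moved with the fit, from 278 to 1431 and from 156 to 744 over the alternatives.

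The early minus mature change was called for 4 of the 11 preselection genes (all genes 4.4%). Spo11 differed by -1.43 early, with an early minus mature change of -1.38, and Clk3 by -0.91 early, with a change of -0.97, and both changes passed the test. The list medians of the preselection genes were 0.21 at the late and 0.23 at the mature stage, where 8 of 11 were higher in F5 in the mean, against -0.76 early. Maturation and egress genes turned from a median of 0.38 early to -0.33 late and -0.16 mature. For Gimap4 the early minus mature change was 1.54 and for the transcription factor gene Nfkb1 0.94, each with F5 higher early and lower later. Interferon-stimulated genes went further in the same direction, from -0.78 early to -2.67 late and -3.20 in mature cells. In mature cells 29 of 30 were called higher in TG6 (all genes 4.5%). The early minus mature change was called for 27 of those 30 genes (all genes 4.4%), Rtp4 (3.22) and Irf7 (2.13) among them.

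**Figure D5:**
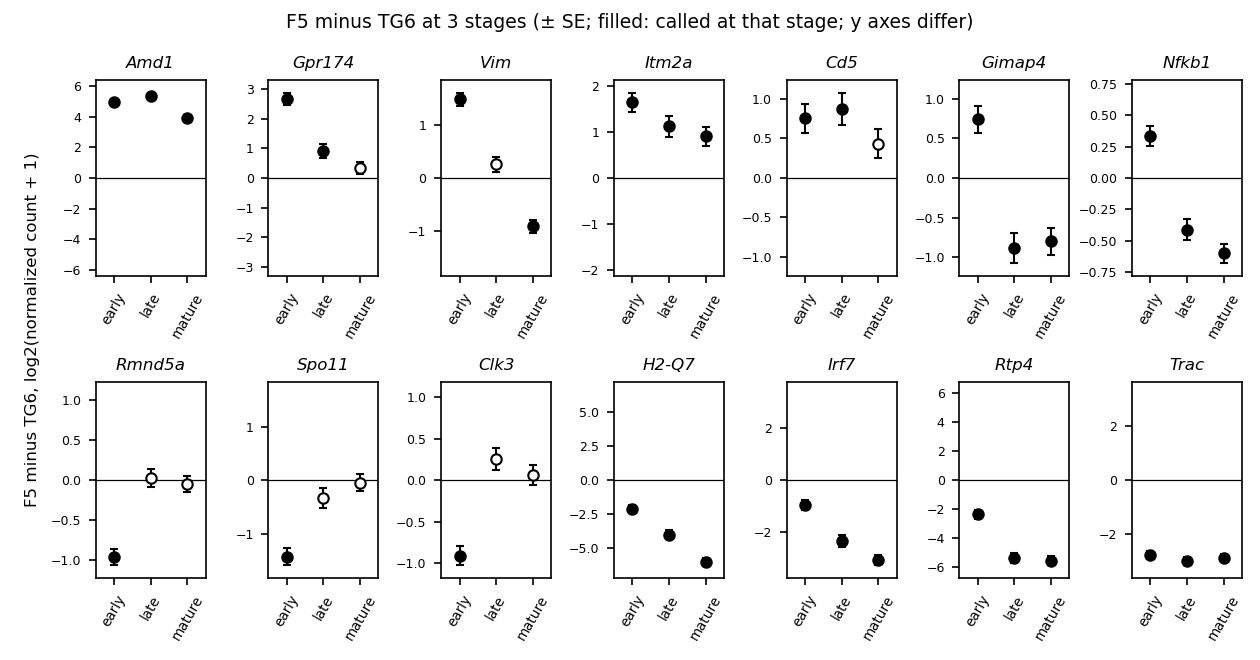
F5 minus TG6 difference (y, log2 of normalized count + 1, with SE, y axes differ) of 14 genes at the early, late and mature stages (x). Filled points are called at that stage, and Amd1 and Trac are called at all 3 stages, Amd1 with a smaller difference in mature cells, while Spo11 and Clk3 are not called in mature cells and Rtp4 widens.

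OT-1 libraries, none of which entered the contrast although they shared its estimate of spread, gave an outside view of which genes change as thymocytes mature. From the early stage to mature CD8SP, 49% of all tested genes had a higher mean in mature OT-1 cells and 50.6% a lower one, with 12.8% called up and 10.5% called down. Of the 510 genes higher in F5 than in TG6, 363 (71.2%) were higher in mature OT-1 cells, 218 (42.7%) were called up during OT-1 maturation and 43 (8.43%) called down. Of the 548 genes higher in TG6, 345 (63.0%) were lower there, 191 (34.9%) were called down and 61 (11.1%) called up. Leaving out receptor segments and genes within 5 Mb of H2-K1, 213 of 495 (43.0%) F5-higher genes were called up and 176 of 425 (41.4%) TG6-higher genes called down. Both sets of calls used the same estimate of spread for each gene. Genes called in one contrast can therefore pass the other more readily, and the shares called of all genes are not a matched baseline.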

How the data were processed

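Thymocytes were sorted by the authors, RNA was extracted with a Zymo kit, and libraries were sequenced by BGI on Illumina HiSeq instruments. Per the submitters' processing notes, reads were handled with Trimmomatic 0.32, Bowtie2 2.3.2 and RSEM 1.2.31 on mm10, and with DESeq2 (version not given in the sources used here). The deposited signal values are normalized counts: RSEM estimates that the authors scaled by DESeq2 size factors, so values are not comparable between genes per length. Because most values were not whole multiples of 1 read (tolerance 0.001), no count model was used.

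Here limma 3.58.1 in R 4.3.3 was fitted to log2(value + 1) with 1 mean for each of the 9 groups of line and stage (17 residual degrees of freedom) and a trended prior. Adjusted p-values are Benjamini-Hochberg over all genes tested, 2-sided. A log2 difference on this scale understates changes of low genes. Positions are GENCODE (GRCm38), which placed 92.6% of tested genes. Trav, Trbv and class I values rest on reads that may be shared between copies.

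The members and gene lists were chosen with earlier results of these data known. Named genes followed a rule: genotype and sort markers with Cd5 and Nr4a1, the largest differences in each direction (mean of at least 100 in the higher group), receptor segments, up to 4 called members per list, abundant genes (mean of at least 1000) with the smallest adjusted p, and genes whose difference changed between stages. Cd44, Trac, Trbc2, Cdk19, Slc16a10, Clk3, Plxnd1, Themis, Ptpn2, Csk, Ptpn6, Irf7, H2-D1, Fos, Jun, Egr1, Cd69, Cd6, Mki67, Trav6-7-dv9, Blk and the genes given beside them as members called on a short list were named after their values were seen. Alternatives were another pseudocount, filter, scaling, prior, set of libraries, replicate block and line with replicate number as a random effect (the labels do not say that libraries of one number share a mouse), and, chosen after the data were examined, voom weights and leaving out F5 replicate 1 and TG6 replicate 3.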

Additional observations from a re-analysis of the deposited data

Results flagged for a closer look

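For the genes below the F5 minus TG6 difference itself changed between stages (an interaction contrast in the limma fit, adjusted p under 0.05), and values are the early difference minus that of the later stage on the log2 scale.

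Against mature CD8SP, the early difference was more positive for interferon and class I genes. The values were 3.22 for Rtp4, 2.62 for Xaf1, 2.13 for Irf7, 1.18 for Irf9, 3.87 for H2-Q7, 2.88 for H2-Q6, 1.84 for Psmb9, 1.41 for H2-K1 and 1.05 for H2-D1. In 8 of these 9 genes TG6 was the higher line early, and Psmb9 was higher in F5 early. The early difference was also more positive for other genes named here, with 3.91 for Cd200, 2.41 for Vim, 2.34 for Gpr174, 1.8 for Cd44, 1.54 for Gimap4, 1.40 for Gimap3 and 0.59 for Cd2. Further values were 1.2 for Orai3, 1.03 for Amd1, 0.94 for Nfkb1, 0.73 for Rpl37, 0.66 for Rps18, 0.65 for Slc16a10, 0.64 for Ptpn2 and 0.48 for Eif4b. The early difference was more negative for Pde6a (-3.84), Ddr1 (-1.93), Spo11 (-1.38), Gbp8 (-1.36), Plxnd1 (-1.19), Clk3 (-0.97), Rmnd5a (-0.91), Ilvbl (-0.80), Itpr2 (-0.70), Themis (-0.56) and Fas (-0.56).

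Against late positive selection, where TG6 had 2 libraries, the change was positive for Rtp4 (3.03), Xaf1 (2.08), H2-Q7 (1.89), Gpr174 (1.76), H2-K1 (1.71), Gimap4 (1.63), Gimap3 (1.61), Psmb9 (1.44), Irf9 (1.39), Irf7 (1.39), Vim (1.23), Ikzf2 (1.06) and Nfkb1 (0.75). It was negative for Pde6a (-4.61), Plxnd1 (-1.46), Clk3 (-1.16), Spo11 (-1.10), H2-T22 (-1.06), Rmnd5a (-0.99), Gbp8 (-0.92), Ilvbl (-0.78) and Themis (-0.54).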

How the results depend on the processing

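The early count of 1058 genes (510 higher in F5, 548 higher in TG6) stayed within 1.5 times under every pseudocount, filter, scaling, prior, replicate block, random effect and voom fit (864 to 1109 genes). It rose to 1663 (914 higher in F5) when the other 7 groups were kept out, and fell to 418 (159 and 259) without F5 replicate 1 and TG6 replicate 3. Leaving out 1 early library gave 646 to 746 genes, 296 to 331 of them higher in F5 and 350 to 415 higher in TG6, lowest without TG6 replicate 3 in each case. The total fell by over 1.5 times without F5 replicate 1 or 2 or TG6 replicate 2 or 3. Of the 1058 genes, 469 were called in all 6 of these fits and 121 in none, and of the 78 called genes named here 50 and 2. The replicate block gave 1109 genes. Replicate numbers did not pair the lines, with correlations of same-numbered deviations of -0.021, 0.006 and -0.026.

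The early against mature count of 721 (500 more positive and 221 more negative early) fell to 278 (204 and 74) with only the 4 groups involved and to 375 (283 and 92) without the same 2 libraries, and rose to 1431 (903 and 528) with line and replicate number as a random effect. With 1 library left out it ran from 511 to 930, with 361 to 571 more positive and 134 (without TG6 early replicate 2) to 359 (without TG6 mature replicate 3) more negative. The early against late count of 340 (230 and 110) rose to 744 (431 and 313) with that random effect and fell to 185 (138 and 47) without the 2 libraries and to 216 (121 more positive) with voom weights. With 1 library left out it ran from 156 (116 and 40, without TG6 late replicate 2) to 392, with up to 271 more positive and 121 more negative, and was 179 without TG6 late replicate 1. That stage rests on 2 TG6 libraries, and a lone library was then assumed to vary like the other groups. The causes were not tested. No call of a count reversed. Genes near a count of 10 carry large counting error.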

Other observations

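Further lists of metabolism and RNA processing had few called genes, while most members of 6 of them had a higher mean in F5 (49.3% of all genes did). Over all genes, 3.12% were called higher in F5 and 3.35% higher in TG6. The median log2 differences were 0.28 for ribosome biogenesis, 0.26 for glycolysis, 0.20 for splicing factors, 0.18 for aminoacyl-tRNA synthetases, 0.17 for oxidative phosphorylation and 0.14 for mitochondrial ribosomal proteins. Of 78 oxidative phosphorylation subunits 70 were higher in F5, with 1 called in each direction, and of 75 splicing factors 63 were higher in F5 and 2 were called. Of 74 mitochondrial ribosomal proteins 60 were higher in F5 and 1 was called, and of 20 glycolysis genes 16 were higher in F5 with 1 called in each direction. Of 20 aminoacyl-tRNA synthetases 16 were higher in F5 and 1 was called, and of 30 ribosome biogenesis genes 26 were higher in F5, with 2 called higher in F5 and 1 in TG6. Of 25 sterol synthesis genes 16 were higher in TG6 in the mean and 1 was called (median -0.16).

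Solute carriers, the largest family examined, held 8 genes called higher in F5 and 14 higher in TG6 of 212 tested (3.12% and 3.35% of all genes were called so), with a median of -0.04. Lists of genes that the study describes as higher in peripheral cells with low Cd5 held 5 of 36 and 5 of 38 genes called higher in TG6 (3.35% of all genes) and none called higher in F5, with 12 and 11 genes at an unadjusted p under 0.05. Other fits called up to 3 genes of the first list and 1 of the second higher in F5. Without F5 replicate 1 and TG6 replicate 3, 3 and 1 of them were called, 1 and 4 solute carriers were called higher in F5 and in TG6, and the aminoacyl-tRNA synthetase call was lost. Of 23 Dusp and Sprouty genes, feedback inhibitors of MAP kinase signalling, none was called by limma and 7 had an unadjusted p under 0.05. Of 25 integrin chains 2 were called, both higher in F5 (all genes 3.12%). Of 17 NF-kB and NFAT genes only Nfkb1 was called, at 2098, 2134 and 2152 in F5 and 1711, 1670.1 and 1676 in TG6 (0.34, adjusted p = 0.0097, and 0.081 without F5 replicate 1 and TG6 replicate 3).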
